A study of Ovis aries with 10 samples.

Results

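Some transcripts of the sheep endometrium were near the level of the P4 ewes in part of the RU486-treated ewes and far above it in the others, and 5 of the 23020 genes in the deposited table had this pattern. They are ENSOARG00000004494, ENSOARG00000002980, ENSOARG00000009308, ENSOARG00000017091 and ENSOARG00000000058. They were picked on the expression values themselves. With m as the larger of 1 FPKM and the highest value in a P4 ewe, a gene had to reach 4 times m in at least 2 P4+RU486 ewes. It also had to lie at or below the highest P4 value in at least 1 other ewe of that group. An ewe at 4 times m or more is called high for that gene below. FPKM are read counts scaled by gene length and library size, and this unit was read from the values, since the file header names none. Because the rule used the contrast of the groups, all values of that contrast are descriptions, and the limma values given below for these genes support nothing.

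The tissue was the lining of the uterus, dissected and frozen, from ewes without ovaries. Every ewe was injected with 50 mg progesterone (P4) daily, for 14 days in all. The P4 group (n = 5) had nothing else. The P4+RU486 group (n = 5) had 50 mg RU486 added to each daily dose on days 8 to 14. Breed and age of the ewes are not stated in the labels, and each library is a separate animal. Ewes are named by group and replicate, and the replicate number is only a name.

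Progesterone from the ovary acts through the progesterone receptor, a nuclear receptor that binds DNA and sets the activity of target genes. In ruminants it prepares the endometrial glands to secrete the fluid that feeds the early conceptus, and continued exposure lowers the receptor in the epithelium while the stroma keeps it. RU486 (mifepristone) binds the receptor and acts as an antagonist in most settings. The endometrium holds luminal and glandular epithelium, stroma, vessels and immune cells, so a transcript in bulk RNA can move with the makeup of the piece as well as with its level per cell. These samples cannot tell more cells of a type from more RNA per cell.

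The table gives genes as Ensembl identifiers and does not pair them with names, and 0 of the 23020 matched the reference gene table at hand. What the 5 genes encode is therefore not given here, no sequence is shown, and the labelled tissue could not be checked against cell type markers. The libraries summed to between 680815 and 803425 FPKM for P4 ewes and between 704242 and 965174 for treated ewes. P4+RU486 replicate 2 stood apart with the highest sum, and its 100 most abundant genes took 38.1% of it, against 25.6% to 32.5% in the P4 ewes. Neither the sum, the number of genes at 0 nor that share was shown to differ between the groups (exact permutation tests, two-sided, p = 0.714, 0.444 and 0.143, adjusted over the 3 by Benjamini-Hochberg 0.714, 0.667 and 0.429). No 2 libraries held identical values. The depth behind each value is unknown, so the error given with a value is the SD over ewes.

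ENSOARG00000004494 was barely detected in P4 and was one of the more abundant transcripts in 3 of the treated ewes. In P4 it was at 0.48, 0.15, 1.28, 0.32 and 0 FPKM in replicates 1 to 5. In P4+RU486 it was at 315, 58.2, 0.36, 0 and 110.1 FPKM. Replicates 1, 2 and 5 were high, and replicates 3 and 4 lay inside the P4 range. The lowest high ewe stood 162 times above the highest of the other treated ewes, the widest such gap of the 5 genes. That other ewe was at 0.36 FPKM, and so small a value makes the size of the gap uncertain. Against m, at 1.28 FPKM, the lowest high ewe was at 45.4 times. By rank within its own library, the gene was number 281 of 23020 in P4+RU486 replicate 1, number 897 in replicate 5 and number 2423 in replicate 2. In the P4 ewes its rank was between 14393 and 20033, where the last is the shared rank of all genes at 0. The mean over the 5 P4 ewes was 0.446 ± 0.5 FPKM, and over the 5 treated ewes it was 96.6 ± 130 FPKM (SD), so the SD of the treated group exceeded its mean. It was the only one of the 5 that was high in 3 ewes.

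**Figure D1:**
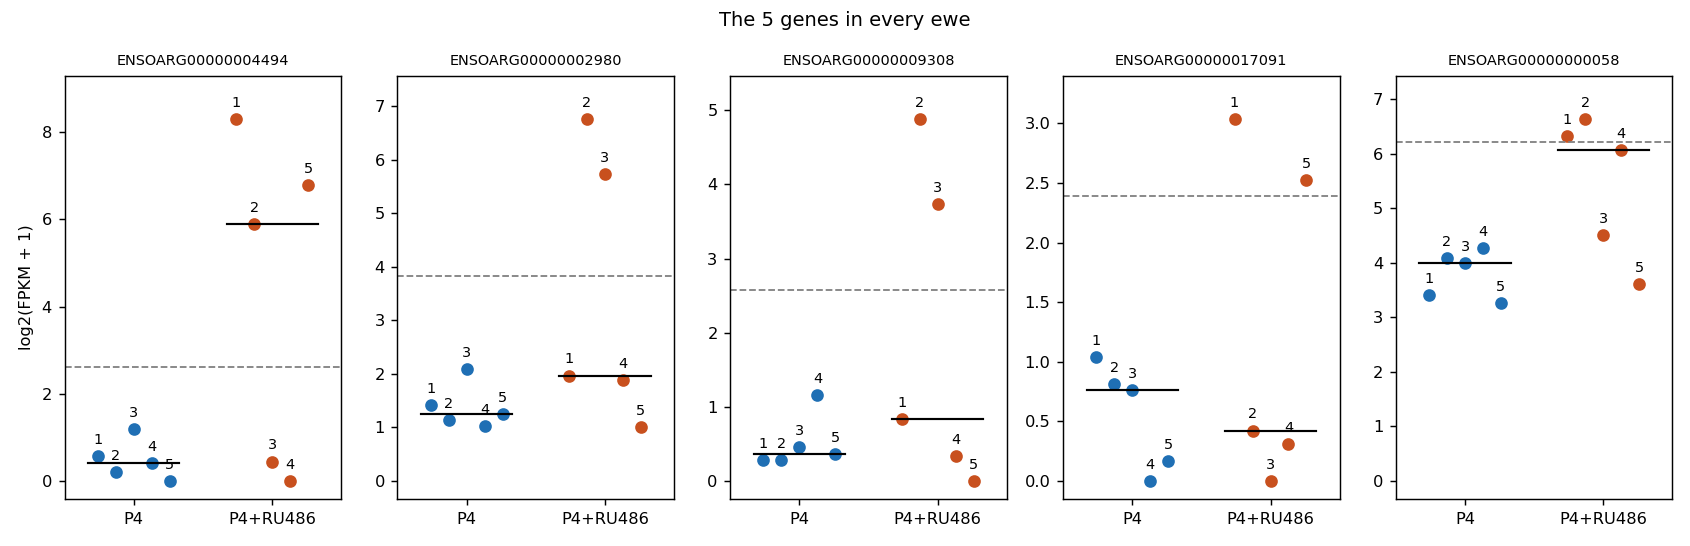
Each panel is 1 gene, with log2(FPKM + 1) on the y axis on its own scale and 1 point per ewe, numbered by replicate. Black bars are group medians and the dashed line is 4 times the larger of 1 FPKM and the highest P4 value. ENSOARG00000004494 is split into 3 treated ewes far above the line and 2 at the P4 level, while for ENSOARG00000000058 the line runs between the 3 upper treated ewes.

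ENSOARG00000002980 and ENSOARG00000009308 were high in the same ewes, P4+RU486 replicates 2 and 3, and in no other. ENSOARG00000002980 was at 1.67, 1.21, 3.27, 1.04 and 1.39 FPKM in P4 replicates 1 to 5. In P4+RU486 replicates 1 to 5 it was at 2.91, 107, 52.1, 2.71 and 1 FPKM. The 3 treated ewes that were not high lay at or below the highest P4 ewe, and replicate 5 was below all P4 ewes. ENSOARG00000009308 was lower than ENSOARG00000002980 in every ewe except P4 replicate 4, at 0.22, 0.21, 0.37, 1.24 and 0.29 FPKM in P4. In P4+RU486 it was at 0.79, 28.5, 12.4, 0.26 and 0 FPKM. For both genes replicate 2 was the highest, by 2.05 times over replicate 3 for ENSOARG00000002980 and by 2.3 times for ENSOARG00000009308.

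The ratio of these 2 genes was similar in the 2 ewes where both were high. Both genes were picked on these ewes, and 2 ewes cannot show that a proportion is kept. ENSOARG00000002980 was at 3.76 times the FPKM of ENSOARG00000009308 in P4+RU486 replicate 2 and at 4.21 times in replicate 3. The ratio was 3.68 in replicate 1 and 10.4 in replicate 4, where both genes were low. In P4 it ran from 0.839 to 8.84, and small values in FPKM make it uncertain there. The highest P4 ewe was not the same for both genes. It was replicate 3 for ENSOARG00000002980 and replicate 4 for ENSOARG00000009308. P4+RU486 replicate 2, the library that stood apart, is 1 of the 2 high ewes for both genes, and its part in their values was not tested. In replicate 3, the other high ewe, ENSOARG00000002980 was at 15.9 times m and ENSOARG00000009308 at 9.98 times m, values that the rule used.

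**Figure D2:**
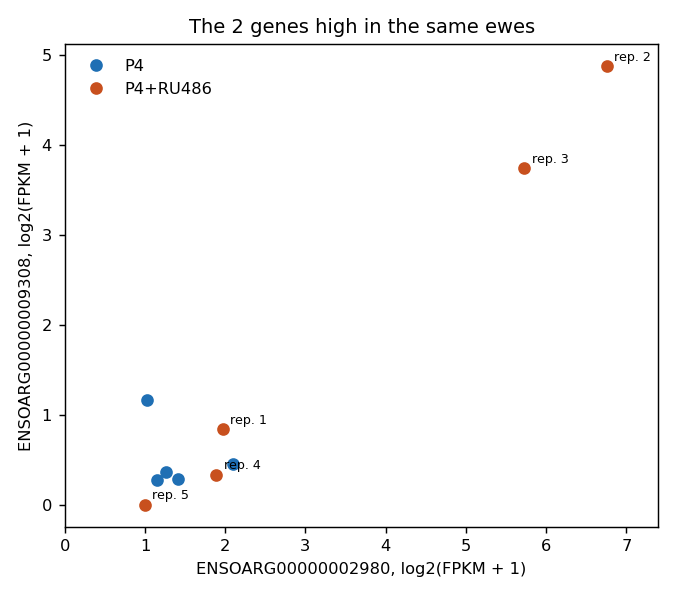
The axes give log2(FPKM + 1) of ENSOARG00000002980 (x) and ENSOARG00000009308 (y), with 1 point per ewe, P4 in blue and P4+RU486 in orange with the replicate number. P4+RU486 replicates 2 and 3 stand at the upper right for both genes, and the other 8 ewes lie at the lower left.

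ENSOARG00000017091 had the lowest levels in the high ewes. It was at 1.06, 0.76, 0.7, 0 and 0.12 FPKM in P4 replicates 1 to 5 and at 7.2, 0.34, 0, 0.24 and 4.76 FPKM in P4+RU486. Replicates 1 and 5 were high, and the other 3 treated ewes lay within the P4 range. Both high ewes were also high for ENSOARG00000004494, but replicate 2, high for that gene at 58.2 FPKM, was at 0.34 FPKM here. The proportion also differed between the shared ewes, since ENSOARG00000004494 was at 43.7 times the FPKM of ENSOARG00000017091 in replicate 1 and at 23.1 times in replicate 5. Even in its highest ewe ENSOARG00000017091 ranked number 10387 of 23020 in the library. Of the 5 genes it was the one nearest to the floor of 1 FPKM, with m at 1.06.

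ENSOARG00000000058 was well expressed in every ewe, with 3 treated ewes far above the P4 range and 2 in or near it. It was at 9.61, 16, 14.9, 18.3 and 8.56 FPKM in P4 replicates 1 to 5. In P4+RU486 it was at 79, 98.2, 21.9, 66.2 and 11.2 FPKM. Replicates 1 and 2 passed 4 times m, which was 73.1 FPKM, and replicate 4 was just short of it. Replicate 3 was above all P4 ewes by a small margin and replicate 5 lay inside the P4 range. The limit of 4 times m thus ran between the 3 upper ewes. The lowest high ewe was 1.19 times the highest ewe that was not high, against 14 to 162 times for the other 4 genes. In those 4 genes the highest treated ewe that was not high was at 0.34 to 2.91 FPKM. The values under 1 FPKM among them make such ratios uncertain. For ENSOARG00000000058 the mean was 13.5 ± 4.2 FPKM over the 5 P4 ewes and 55.3 ± 37.4 FPKM (SD) over the 5 treated ewes. For this gene 4 of 5 treated ewes exceeded every P4 ewe.

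Which ewes were high changed from gene to gene. Of the 25 values of the 5 genes in treated ewes, 11 were at 4 times m or more, 12 were at or below the highest P4 value, and 2, both of ENSOARG00000000058, lay between. P4+RU486 replicate 2 was high for 4 of the 5 genes, replicate 1 for 3, replicates 3 and 5 for 2 each and replicate 4 for 0. At a fold of 6, which kept 3 of the genes, replicate 2 was still high for the most, 3, and replicate 4 for 0. The order was not kept at a fold of 3. Among the 13 genes found there, replicate 2 was high for 5 and the other treated ewes for 6 to 8. Replicate 4 lay at or below the highest P4 ewe for 4 of the 5 genes, and the exception was ENSOARG00000000058. No ewe was high for all 5 genes. No treated ewe was at or below the highest P4 ewe for all 5 either. Replicate 2 had ENSOARG00000017091 alone within the P4 range, and replicate 5, high for ENSOARG00000004494 and ENSOARG00000017091, lay within or below it for the other 3.

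Some other genes came close to the rule, which took 13 genes at a fold of 3. The members just inside it were ENSOARG00000000058 and ENSOARG00000017091, whose second highest treated ewe stood at 4.32 and 4.49 times m. Just outside, the nearest genes were at 3.78, 3.55 and 3.55 times m. The other 3 genes were far from this threshold, at 9.98, 15.9 and 86 times m. On the other condition, 4 genes reached 4 times m in at least 2 treated ewes but had no treated ewe down at the P4 level. The nearest of them missed by little, with a lowest treated value of 17.6 FPKM and a highest P4 value of 17.2 FPKM. A gene at 3.23 times m resembled ENSOARG00000017091 in its ewes, with 38 and 34.5 FPKM in P4+RU486 replicates 1 and 5 and at most 2.1 FPKM in the other treated ewes. It was left out because P4 replicate 2, which had no RU486, was at 10.7 FPKM.

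**Figure D3:**
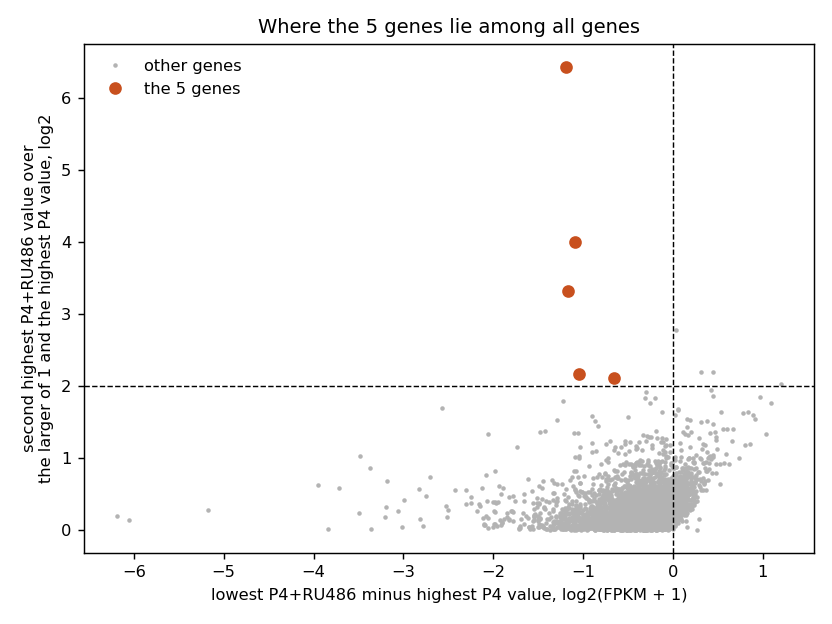
The y axis gives the second highest P4+RU486 value over the larger of 1 FPKM and the highest P4 value, on a log2 scale. The x axis gives the lowest P4+RU486 minus the highest P4 value in log2(FPKM + 1). The dashed lines are the limits of the rule. The 5571 genes with a y of 0 or more are shown, and the 5 genes of the rule (orange) lie at the upper left, 3 of them well above the limit.

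The pattern was rare in this direction and was also found with the groups exchanged. The rule took 0.0217% of the 23020 genes. The same rule read the other way, with at least 2 P4 ewes at 4 times the larger of 1 FPKM and the highest P4+RU486 value and at least 1 P4 ewe within the treated range, took 12 genes, or 0.0521%. The second highest P4 ewe of those 12 genes stood at 4.81 to 41.5 times the limit value, with a median of 5.98. The same quantity had a median of 9.98 over the 5 genes here. Both medians are of values that the rule used, so nothing is read from their difference. Since the exchanged rule took 12 genes, a split within a group was not limited to ewes given RU486.

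Single ewes far above P4 were more common than shared ones. In all, 49 genes (0.213%) had at least 1 treated ewe at 4 times m or more. For 40 of them it was 1 ewe, for 8 it was 2 ewes, and ENSOARG00000004494 was the 1 gene with 3. No gene had 4 or 5. Of the 40 genes high in a single ewe, 18 were high in P4+RU486 replicate 2, 9 in replicate 1, 5 each in replicates 3 and 4, and 3 in replicate 5. The same measure was taken in the control ewes by setting each against the other 4 P4 ewes, and each treated ewe against every set of 4 P4 ewes. The P4 ewes had 4, 6, 12, 7 and 9 such genes. The treated ewes had medians of 19, 26, 11, 10 and 8, so that replicates 1 and 2 were above all P4 ewes and replicates 3 to 5 were within their range. The 2 ewes with the most such genes were also those high for most of the 5 genes, which are themselves part of the count.

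**Figure D4:**
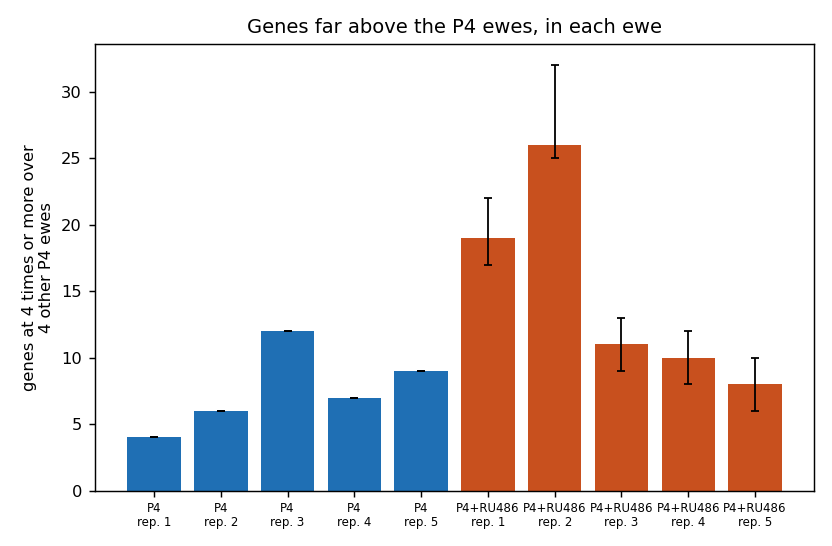
Bars give, for each ewe, the number of genes at 4 times or more over the larger of 1 FPKM and the highest of 4 other P4 ewes. For P4+RU486 ewes the bar is the median over the 5 possible sets of 4 and the line spans the lowest and highest. P4+RU486 replicates 1 and 2, at 19 and 26, exceed the P4 ewes, which lie between 4 and 12.

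The groups were also compared by their means. In limma fitted to log2(FPKM + 1) of all genes, 238 of the 23019 tested (1.03%) were called higher in P4+RU486 at a Benjamini-Hochberg adjusted p under 0.05, and 0 of the 5 were among them. At an unadjusted limma p under 0.05, 2 of the 5 were higher, ENSOARG00000004494 and ENSOARG00000000058, against 2053 of all genes tested (8.92%). Since the rule used this contrast, nothing is read from either count. The differences on the log2(FPKM + 1) scale ran from 0.7 for ENSOARG00000017091 to 3.81 for ENSOARG00000004494, with a median of 1.63. The median over all genes tested was 0. For ENSOARG00000004494 the difference of 3.81 had a standard error of 1.53 and a 95% interval from 0.41 to 7.22. ENSOARG00000000058, with a smaller difference of 1.63, had a standard error of 0.55 and an interval from 0.4 to 2.85. On the log2 scale the SD among treated ewes was 3.81 for ENSOARG00000004494, 2.59 for ENSOARG00000002980, 2.2 for ENSOARG00000009308, 1.41 for ENSOARG00000017091 and 1.3 for ENSOARG00000000058, whereas the SD among P4 ewes was between 0.373 and 0.454 for all 5. This wider spread in the treated group follows from how the genes were picked.

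Which genes the rule finds depended on single ewes. Without P4+RU486 replicate 2 it found 2 of the 5, ENSOARG00000004494 and ENSOARG00000017091, since the other 3 were left with fewer than 2 high ewes. Without replicate 1 or without replicate 5 it found 3, and ENSOARG00000000058 and ENSOARG00000017091 were lost. Without replicate 3, ENSOARG00000002980 and ENSOARG00000009308 were lost. ENSOARG00000004494 alone was found whichever of the 10 ewes was left out. Leaving out a P4 ewe lost none of the 5 and added other genes, to 8 in all without P4 replicate 1 or 2 and to 9 without P4 replicate 5.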

How the data were processed

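The deposited table holds 1 row per gene for 23020 sheep genes. Per the submitters' processing notes, the build was Oar_v3.1 and the tools included edgeR, featureCounts 1.5.0, HISAT2 2.0.3 and cutadapt 1.11, without roles. The values were deposited by the authors with no unit in the header, rounded to 2 decimals. They are read here as FPKM, since column sums differ between ewes and the smallest values differ between genes. In the 1353 genes that a single ewe alone expressed, values spanned 0.022 (10th percentile) to 0.618 (90th). TPM with genes removed cannot be told apart from this. No source used here gives the scaling of the libraries, filters, annotation or depth. An adjusted p-value deposited by the authors for each gene was not used.

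Genes were picked on values as deposited (fold 4, floor 1 FPKM, at least 2 ewes). limma 3.58.1 in R 4.3.3 was fitted to log2(FPKM + 1), a pseudocount of 1, with 1 term for the group and a trend, over 23019 genes above 0 in any ewe. This log2 scale, computed from the deposited values, understates changes of low genes. The fit was also run on simulated data with 200 changed genes, each gene having the same SD in both groups. That setting differs from genes split within the treated group, and its outcome is not used here. Library measures had exact two-sided permutation tests, which cannot go below 0.00794 here.

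The members and lists were chosen with earlier results of these data known. The rule for naming genes took the one with the highest ratio to m and the one with the highest mean in P4+RU486, both ENSOARG00000004494, and the other 4 were named after their values were seen. Gene lists and cell type markers listed beforehand could not be used without names.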

Additional observations from a re-analysis of the deposited data

Results flagged for a closer look

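In 18 groups of 5 values, an ewe far from the rest by Dixon's ratio was looked for, and 3 were found, where chance gives about 1 in 20 groups. The measures are related, and 2 of the 3 are highest P4 values of genes picked with those values, so the number found is not set against that rate. In P4, replicate 3 was high for ENSOARG00000002980, at 3.27 FPKM against at most 1.67 in the other 4. In P4, replicate 4 was high for ENSOARG00000009308, at 1.24 FPKM against at most 0.37. In each case this ewe sets the limit that the treated ewes had to pass. The summed FPKM of P4+RU486 replicate 2 was 965174, against at most 765735 in its group.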

How the results depend on the processing

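The rule found 5 genes as deposited, and the same 5 after median-ratio rescaling, whose factors lay close to 1. It found 13 genes, the 5 included, at a fold of 3, and 3 at a fold of 6 (ENSOARG00000004494, ENSOARG00000002980 and ENSOARG00000009308). A floor of 0.5 FPKM gave 7 and a floor of 2 gave 4, and with at least 3 high ewes it was 1, ENSOARG00000004494. Leaving out 1 ewe at a time gave 2 to 9 genes. At a fold of 3 the high genes numbered 8 in P4+RU486 replicate 1, 5 in replicate 2, 6 in replicate 3, 6 in replicate 4 and 6 in replicate 5, so that replicate 2 went from the most to the fewest and replicate 4 was no longer at 0. At a fold of 6 there were 3 in replicate 2, 2 in replicate 3, 1 each in replicates 1 and 5 and 0 in replicate 4. The limma calls over all genes were 54 to 429 higher and 124 to 595 lower when 1 ewe was left out. With all ewes they were 238 higher and 319 lower. The 429 and 595 came without P4+RU486 replicate 2, the library that stood apart. In those fits 0 to 1 of the 5 genes was called. The call was ENSOARG00000000058 without P4+RU486 replicate 5, with a log2 difference of 2.08 (limma adjusted p = 0.0392, against 0.152 with all ewes and up to 0.3 without another ewe). That ewe is the one at the P4 level that the rule required, and the gene was picked on this contrast, so the call supports nothing. Over all genes, 247 of the 22879 tested were called higher without that ewe. The cause of these shifts in the calls was not tested. With pseudocounts of 0.1 and 5 and with rescaling, 0 of the 5 was called. Of all 23019 genes tested, 217, 203 and 208 were called higher in these fits, in that order. A filter at a mean log2 of 1 removed ENSOARG00000017091 before the fit, and 0 of the other 4 was called. Of the 14866 genes tested after this filter, 321 were called higher. The rule used this contrast, so nothing is read from these counts of the picked genes. No paired analysis was made, since each library is a separate animal and the labels give no pairing of ewes. Unknown depth limits the reading of values under 1 FPKM.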
